A study of Mus musculus with 20 samples.

Results

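H3K27me3 that appeared in reprogramming cells and was not called in the starting fibroblasts was described at 725 peaks. They were the peaks of the day 10 wild-type (WT) FLAG list that overlapped, by at least 1 bp, a peak of the day 10 Jmjd3 knockout (KO) FLAG list and overlapped no peak in either list from mouse embryonic fibroblasts (MEFs). The day 10 WT FLAG list held 5131 peaks, and the 10 H3K27me3 lists of the study held 53171. Of the remaining day 10 WT FLAG peaks, 2383 were called in KO FLAG cells and in at least 1 MEF list (persistent peaks), 1390 were in neither (WT-only new peaks) and 633 were in a MEF list but not in KO FLAG cells. The count of new peaks rested mostly on the WT MEF list. It was 815 without the KO MEF list and 1341 without the WT MEF list, an alternative added after the data were seen.

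The cells were MEFs, untreated (Jmjd3+/+ or Jmjd3-/-) or reprogrammed for 5 or 10 days with Oct4, Sox2, Klf4 and c-Myc (OSKM) in medium with vitamin C. With the OSKM factors, cells were given a FLAG vector as control or a vector for Jmjd3. WT samples carried the strain label C57BL/6J-OG2 and KO samples C57Bl6J, so strain and genotype cannot be told apart. The factors came on pMXs retroviruses by the treatment protocol, whereas another label field called the transfection lentiviral. KLF4 (in WT cells with FLAG or JMJD3) and FLAG-tagged JMJD3 (with OSKM or with low KLF4) were profiled at day 5. Each group was 1 library, which leaves every difference without replicates, and no p-value was computed. Intervals are 95% Wilson intervals for shares and Newcombe intervals for differences. They cover counting error over peaks only, and neighbouring peaks are not independent. The number of reads behind each list was not used here.

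H3K27me3 is written by Polycomb repressive complex 2 and is found at silent genes, above all at CpG-rich promoters of developmental regulators. JMJD3, encoded by Kdm6b, removes it. In fibroblasts the genes for collagen cross-linking, matrix and growth factor receptors are active and free of the mark, while genes of other lineages carry it. By calls of the mark alone, the MEF lists had this pattern in part, and expression was not used here. A MEF peak lay within 5 kb of a transcription start site (TSS) of 80 of 85 neural and lineage regulators and 37 of 39 Hox genes, but of only 3 of 49 fibroblast matrix genes and 0 of 28 housekeeping genes. It also lay at 23 of 52 mesenchymal transcription factor genes and at 11 of 34 haematopoietic and endothelial genes.

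The peaks differed in CpG content, so sequence of 300 bases is shown for 7 of them, taken from GRCm38 (the mm10 build), plus strand, at the window nearest the peak centre without an annotated UTR, with each CG dinucleotide in capitals. The first 4 lay in peaks called in all 6 H3K27me3 lists that the rule did not use. They were in Vgf (chr5:137031134-137031433, coding exon, 26 CG), upstream of Pdgfra (chr5:75149084-75149383, outside annotated genes, 11 CG), in Loxl1 (chr9:58312123-58312422, coding exon, minus-strand gene, 31 CG) and in Hic1 (chr11:75166554-75166853, coding exon, minus-strand gene, 29 CG). The other 3 lay in peaks called in none of the 4 lists from cells with JMJD3. They were in Myl9 (chr2:156775717-156776016, intron, 5 CG), Dact3 (chr7:16876254-16876553, intron, 4 CG) and Actl11 (chr9:107928623-107928922, coding exon, 5 CG).
Vgf: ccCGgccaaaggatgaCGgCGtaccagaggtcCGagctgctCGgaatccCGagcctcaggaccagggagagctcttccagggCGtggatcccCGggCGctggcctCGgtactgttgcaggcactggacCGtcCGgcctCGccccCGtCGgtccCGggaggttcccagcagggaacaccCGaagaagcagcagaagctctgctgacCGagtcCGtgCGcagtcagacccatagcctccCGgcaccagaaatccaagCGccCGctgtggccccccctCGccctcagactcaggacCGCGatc
Pdgfra: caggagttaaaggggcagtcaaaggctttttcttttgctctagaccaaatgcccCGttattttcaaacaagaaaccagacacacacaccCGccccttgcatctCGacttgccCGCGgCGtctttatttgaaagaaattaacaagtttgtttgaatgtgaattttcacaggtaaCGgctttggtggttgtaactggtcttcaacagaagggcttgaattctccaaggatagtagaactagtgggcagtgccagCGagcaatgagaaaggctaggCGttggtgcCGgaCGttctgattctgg
Loxl1: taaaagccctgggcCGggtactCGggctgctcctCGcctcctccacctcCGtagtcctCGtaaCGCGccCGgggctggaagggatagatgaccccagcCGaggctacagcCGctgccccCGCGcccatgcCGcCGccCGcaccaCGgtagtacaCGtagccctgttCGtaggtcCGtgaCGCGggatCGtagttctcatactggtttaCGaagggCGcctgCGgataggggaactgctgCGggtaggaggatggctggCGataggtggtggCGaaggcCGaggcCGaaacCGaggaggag
Hic1: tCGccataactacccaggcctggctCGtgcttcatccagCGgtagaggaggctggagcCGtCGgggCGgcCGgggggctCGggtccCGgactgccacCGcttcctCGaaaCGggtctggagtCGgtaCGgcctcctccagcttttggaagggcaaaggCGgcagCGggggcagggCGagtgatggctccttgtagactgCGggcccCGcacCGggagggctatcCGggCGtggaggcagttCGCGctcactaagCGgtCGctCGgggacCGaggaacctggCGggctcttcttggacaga
Myl9: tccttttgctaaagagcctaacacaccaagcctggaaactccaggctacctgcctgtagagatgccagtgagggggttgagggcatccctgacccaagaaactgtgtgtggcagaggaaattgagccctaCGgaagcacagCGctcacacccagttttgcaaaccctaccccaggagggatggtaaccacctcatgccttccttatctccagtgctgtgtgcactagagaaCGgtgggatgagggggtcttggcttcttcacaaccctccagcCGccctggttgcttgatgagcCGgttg
Dact3: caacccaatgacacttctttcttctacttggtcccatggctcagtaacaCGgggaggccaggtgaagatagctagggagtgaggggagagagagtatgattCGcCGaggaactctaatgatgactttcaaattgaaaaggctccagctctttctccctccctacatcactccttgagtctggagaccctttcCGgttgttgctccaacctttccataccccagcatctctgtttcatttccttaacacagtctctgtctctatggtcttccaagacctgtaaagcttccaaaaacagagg
Actl11: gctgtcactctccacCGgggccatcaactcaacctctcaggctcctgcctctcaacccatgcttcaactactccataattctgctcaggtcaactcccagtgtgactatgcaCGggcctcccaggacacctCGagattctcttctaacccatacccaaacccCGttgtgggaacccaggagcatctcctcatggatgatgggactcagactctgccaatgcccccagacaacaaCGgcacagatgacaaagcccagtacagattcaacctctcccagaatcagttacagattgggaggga

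Scores of the peak caller were used only to rank peaks within a list. The peaks were chosen by calls in the 2 day 10 FLAG and the 2 MEF lists, so values from these lists are description only. The new peaks had a median score of 10.1 in the day 10 WT FLAG list, against 15.8 for persistent and 7.88 for WT-only new peaks. The highest scored 67.9 and ranked 33 of 5131. The edge of the nearest MEF peak was a median of 35551 bp away. It was within 1 kb for 102 new peaks (14.1%), within 5 kb for 166 (22.9%) and within 50 kb for 405 (55.9%). Just inside the rule, peaks near Kcnb2 and Snap91 were 1 bp from a MEF peak and those at Wnt2 and Rybp shared 11 bp with a KO peak. Just outside it, peaks near Esrrg and Apoa5 shared 1 bp with a MEF peak. Most overlaps with a KO peak were large, with a median of 741 bp, and 571 were at least 500 bp. The peaks were scattered: joined where less than 5 kb apart, they formed 707 groups, of which 689 were single peaks. Of 725, 3 lay on the X and 2 on the Y chromosome.

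Presence at day 5 was asked first. Most new peaks were already called at day 5 in control cells, though far fewer than persistent peaks. In day 5 WT FLAG cells 449 were called (61.9%, 58.3 to 65.4), close to the 66.1% of all day 10 WT FLAG peaks. In day 5 KO FLAG cells 385 were called (53.1%, 49.5 to 56.7), against 60.2% of all. Persistent peaks were called in 94.5% and 91.0%, and the difference, new minus persistent, was -32.6 points (-36.3 to -29.0) in WT and -37.9 points (-41.7 to -34.1) in KO cells. Persistent peaks were chosen by a call in at least 1 more list of the same mark. The direction of differences from them in calls and in loss, here and below, is partly set by that choice. These differences are description only. WT-only new peaks were called in 19.4% and 13.5%. By combination, 315 new peaks were called in both day 5 FLAG lists (43.4%), 134 in WT only (18.5%; 11.5% of all), 70 in KO only (9.66%; 5.52% of all) and 206 in neither (28.4%, 25.3 to 31.8). Over all day 10 WT FLAG peaks 54.7% were in both, and 71.7% in at least 1 of the day 5 FLAG lists, close to the 71.6% of new peaks. The last 206 were thus not in a FLAG list before day 10, though some, such as the peak at Serpinf1, were in a day 5 JMJD3 list.

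Presence at day 5 moved with the score. Among new peaks of the lowest quartile of day 10 WT FLAG scores, taken over new and persistent peaks together, 48.5% were called in day 5 WT FLAG cells, and among those of the highest quartile 94.5%. Persistent peaks went from 85.7% to 99.3%. Within quartiles the difference, new minus persistent, was -37.2, -30.8, -15.2 and -4.76 points from the lowest to the highest score. With the better-scoring 50% of each day 10 FLAG list, 86.6% of 201 new peaks were called in day 5 WT FLAG cells, and the difference from persistent peaks was -11.7 points (-17.2 to -7.62).

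**Figure D1:**
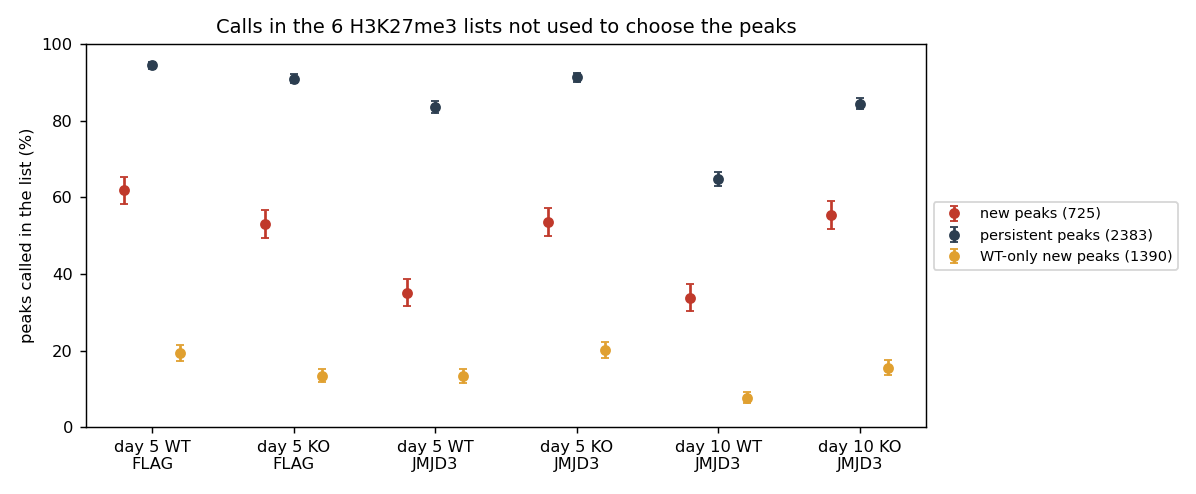
Share of peaks called in each of the 6 H3K27me3 lists that did not enter the rule (y axis, percent), for 725 new, 2383 persistent and 1390 WT-only new peaks; bars are 95% Wilson intervals. New peaks sit between the other sets in every list, and their lowest shares are in WT cells with JMJD3, 35.2% at day 5 and 33.8% at day 10.

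Sensitivity to JMJD3 at day 10 was then measured as the share of peaks with no overlapping peak in the list from JMJD3 cells of the same day. Such a peak is called lost here, which says that it fell out of the list, not that the mark was gone. In WT cells with JMJD3 245 new peaks were called (33.8%; 40.4% of all day 10 WT FLAG peaks) and 480 were lost (66.2%, 62.7 to 69.6), against 59.6% of all day 10 WT FLAG peaks and 35.2% of persistent peaks. The difference between new and persistent peaks was 31.0 points (27.02 to 34.9). In KO cells with JMJD3 402 were called (55.4%; 57.2% of all) and 323 were lost (44.6%, 41.0 to 48.2). This was above the 15.6% of persistent peaks by 29.0 points (25.1 to 32.9). Of all day 10 WT FLAG peaks 42.8% had no KO JMJD3 peak. That share is not a like base for loss, since it includes the 1390 and 633 peaks not called in KO FLAG cells. WT-only new peaks had no JMJD3 peak in 92.2% (WT) and 84.5% (KO).

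The loss also followed the score. In WT cells 79.3% of the lowest-scoring and 20.0% of the highest-scoring quartile of new peaks were lost, beside 60.3% and 12.5% of persistent peaks. In KO cells the shares were 61.1% and 5.45% of new peaks, beside 34.9% and 1.94%. Averaged within quartiles, new peaks were lost more often by 16.0 points (11.9 to 20.6) in WT and 15.4 points (12.2 to 19.5) in KO cells. In the highest quartile, with 55 new peaks, the intervals of the difference included 0 in both genotypes (-1.31 to 20.1 in WT and -0.29 to 12.9 in KO). With the better-scoring 50% of each FLAG list the shares lost were 42.8% and 19.9%, and with FLAG and JMJD3 lists cut to equal length they were 56.0% and 30.9%.

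**Figure D2:**
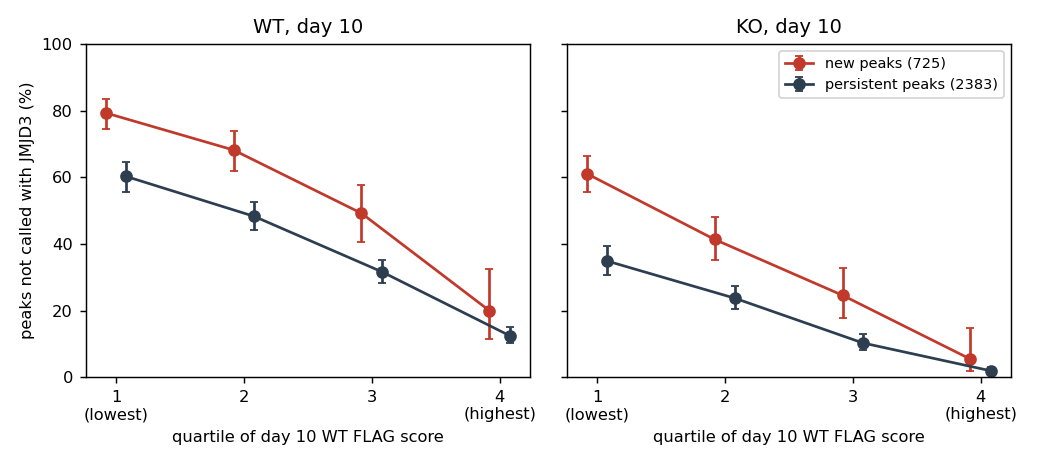
Share of peaks with no peak in the day 10 JMJD3 list of WT (left) and KO (right) cells, by quartile of the day 10 WT FLAG score (x axis, from lowest to highest); points are shares in percent and bars 95% Wilson intervals. New peaks lie above persistent peaks in each quartile, and the intervals meet in the highest one.

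Peaks lost in one genotype were more often lost in the other. Of the 480 new peaks lost in WT cells, 276 were lost in KO cells (57.5%), and of the 245 kept in WT cells, 47 were lost (19.2%), a difference of 38.3 points (31.3 to 44.5). Over persistent peaks the shares were 33.4% and 5.89%, the same direction. Over all day 10 WT FLAG peaks 63.9% and 11.7% had no KO JMJD3 peak, but these include peaks not called in KO FLAG cells. Loss in both genotypes was therefore not read from the whole list. The median score was 9.21 for new peaks lost in WT and 12.95 for those kept, and its part in the overlap of losses was not tested. The remaining combinations were 198 peaks kept in both (27.3%) and 204 lost in WT only (28.1%). Of all day 10 WT FLAG peaks 35.7% were called in both day 10 JMJD3 lists and 21.5% in the KO one only. Peaks absent at day 5 were lost more often. In WT cells 81.5% of new peaks absent from the day 5 WT FLAG list were lost, against 56.8% of those called there, a difference of 24.7 points (17.998 to 30.9). In KO cells the shares were 60.6% and 30.4%, a difference of 30.2 points (23.1 to 36.9). Persistent peaks had the same direction, with differences of 28.2 points (19.4 to 36.3) in WT and 25.8 points (19.4 to 32.6) in KO cells. All day 10 WT FLAG peaks had it in WT cells, with 43.7 points. Their 52.7 points in KO cells include peaks not called in day 10 KO FLAG cells and are not a difference in loss. The median score of new peaks absent at day 5 was 8.715 in WT and 8.825 in KO cells. It was 11.15 and 11.72 for those called, and its part was not tested.

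With JMJD3 at day 5, the share of new peaks called was 35.2% in WT (31.8 to 38.7; 53.7% of all day 10 WT FLAG peaks) and 53.5% in KO cells (49.9 to 57.1; 63.4% of all). In WT cells 236 new peaks were called with FLAG only (32.6%) and 42 with JMJD3 only (5.79%), beside 17.4% and 4.93% of all. In KO cells the numbers were 111 (15.3%) and 114 (15.7%), beside 8.50% and 11.7% of all. Over the 6 lists not used by the rule, the new peaks spread evenly: 103 were called in none, 95 in all, and each number of lists between had 95 to 118 peaks. The shares in none and in all were 14.2% and 13.1% of new peaks, 18.9% and 28.1% of all day 10 WT FLAG peaks, and 0.38% and 53.3% of persistent peaks. In the lists from JMJD3 cells alone, 174 new peaks (24.0%, 21.03 to 27.2) had no call, near the 24.7% of all day 10 WT FLAG peaks and above the 2.90% of persistent peaks.

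New peaks lay mostly at or near promoters, as did the day 10 WT FLAG list as a whole. The median distance of the peak centre to the nearest annotated TSS was 1201 bp (1054 to 1415), against 857 bp for persistent and 8772 bp for WT-only new peaks. Within 5 kb of a TSS were 481 new peaks (66.3%, 62.8 to 69.7), beside 62.9% of all day 10 WT FLAG peaks and 77.0% of persistent peaks. The difference, new minus persistent, was -10.6 points (-14.5 to -6.85), but it turned with the score. In the 2 lower quartiles it was -13.3 and -7.53 points and in the 2 upper ones 5.61 and 3.48 points, both of the latter with intervals that included 0, and the mean was -2.94 points (-7.27 to 0.49). Of the 481, 72.1% were centred downstream of the TSS (68.3% of all). By place, 326 were within 1 kb of a TSS (45.0%), 49 in other exons (6.76%) and 164 in introns (22.6%) of protein-coding genes, and 186 outside such genes (25.7%). Over all day 10 WT FLAG peaks these shares were 40.3%, 7.76%, 22.5% and 29.4%.

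Sequence of the new peaks was poorer in CpG than that of persistent peaks. A peak was called island-like where GC was at least 50% and the ratio of observed to expected CpG at least 0.6. This held for 213 new peaks (29.4%, 26.2 to 32.8), near the 28.6% of all day 10 WT FLAG peaks, and for 43.3% of persistent peaks. The difference was -13.9 points (-17.7 to -9.94), and averaged within score quartiles -4.01 points (-8.68 to 0.62), an interval that included 0. The median number of CpG per 1000 bp was 30 in new, 48 in persistent and 16 in WT-only new peaks. Within 1 kb of a TSS 49.1% of new and 54.8% of persistent peaks were island-like (difference -5.71 points, -11.7 to 0.35), and beyond 5 kb 9.43% and 24.4% (-15.0 points, -19.8 to -9.48). Over all day 10 WT FLAG peaks these shares were 48.8% and 9.71%. Island-like new peaks were called more often at day 5 in WT FLAG cells, 81.2% against 53.9% of the others (91.2% against 56.1% over all day 10 WT FLAG peaks). They were lost less often with JMJD3 at day 10, 49.3% against 73.2% in WT (difference -23.9 points, -31.5 to -16.2) and 22.1% against 53.9% in KO cells (-31.8 points, -38.5 to -24.4). Persistent peaks split the same way, with 23.8% against 43.9% lost in WT and 8.44% against 21.01% in KO cells and 98.6% against 91.3% called at day 5 in WT FLAG cells. Over all day 10 WT FLAG peaks the shares lost in WT cells were 33.7% against 69.97%. Their shares without a KO JMJD3 peak were 16.3% against 53.4%, which include peaks not called in KO FLAG cells. The median score was 12.4 for island-like and 9.58 for other new peaks, and its part was not tested. Of the sequences above, the windows of Vgf, Loxl1 and Hic1 held 26 to 31 CG and those of Myl9, Dact3 and Actl11 held 4 to 5, but single peaks went the other way. Pdgfra, called in all 6 lists, held 11 CG in its window, and the peaks at Synpo and B3gat2, with no call in JMJD3 cells, held 67 and 79 CpG. The 103 new peaks called in no other list stood at the low end, with a median of 17 CpG, a median distance of 10458 bp to a TSS and 9.71% island-like.

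**Figure D3:**
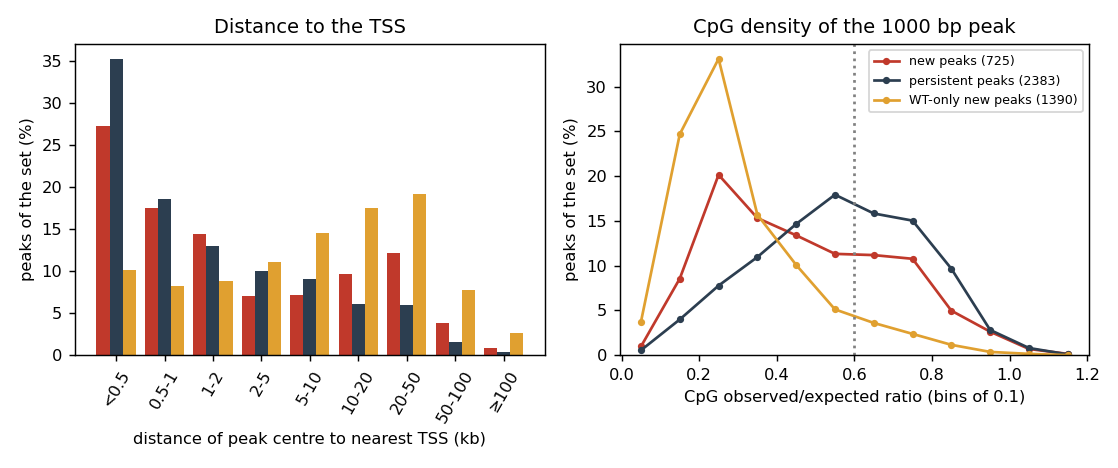
Left, distance of the peak centre to the nearest TSS in kb, as percent of each set of peaks; right, ratio of observed to expected CpG in the 1000 bp peak, in bins of 0.1, with the limit of 0.6 as a dotted line. New peaks lie between persistent and WT-only new peaks in both, with median distances of 1201, 857 and 8772 bp.

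Distance to existing fibroblast H3K27me3 divided the new peaks. The 166 with a MEF peak within 5 kb were richer in island-like sequence than the other 559, 47.6% against 24.0% (difference 23.6 points, 15.3 to 31.9). They were called more often at day 5 in WT FLAG cells, 73.5% against 58.5% (15.0 points, 6.76 to 22.4). With JMJD3 at day 10 the shares lost in WT cells were 65.1% and 66.5%, with an interval of the difference that included 0 (-9.91 to 6.44). In KO cells they were lost less often, 30.7% against 48.7% (difference -17.9 points, -25.7 to -9.48). The median scores were 10.7 and 9.86 and the CpG medians 47 and 28, and their part was not tested.

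Genes were assigned where a new peak lay within 5 kb of a TSS. These were 429 of 21924 protein-coding genes (1.96%), and 311 of them (72.5%) had no MEF peak within 5 kb. Persistent peaks were near 1629 genes (7.43%). No gene had 3 or more new peaks, and 13 had 2, among them Pdgfra, Hic1 and Pitx1. Gene lists were compiled by role. Of 173 genes on the 4 fibroblast lists, 14 had a new peak (8.09%, 4.88 to 13.1). No MEF peak lay within 5 kb of a TSS of 12 of these 14 genes, and of 3 of the 14 developmental regulator and Hox genes with a new peak. MEF calls entered the rule, and the lists differed in them from the start (a MEF peak at 31 of 173, 80 of 85 and 37 of 39 genes), so nothing about the new peaks is read from these counts. The share of genes with a new peak was also above 1.96% for developmental regulators (10 of 85, 11.8%, 6.52 to 20.3), Hox genes (4 of 39, 10.3%, 4.06 to 23.6), signalling ligands and antagonists (12 of 72, 16.7%, 9.80 to 26.9) and epithelial genes (3 of 26, 11.5%, 4.00 to 29.0). These lists carry the mark at many genes. Among genes with any day 10 WT FLAG peak within 5 kb, a new peak was at 429 of 2611 over all genes (16.4%), 10 of 75 developmental regulators (13.3%, 7.41 to 22.8), 4 of 32 Hox genes (12.5%, 4.97 to 28.1), 12 of 55 ligands and antagonists (21.8%, 12.9 to 34.4) and 3 of 15 epithelial genes (20.0%, 7.05 to 45.2), all with intervals that included 16.4%. It was at 14 of 48 fibroblast-listed genes (29.2%, 18.2 to 43.2), and this share also depends on the few MEF peaks at these genes, which the rule used. Pluripotency genes (2 of 33) and haematopoietic and endothelial genes (Erg, 1 of 34) had intervals that included 1.96%, and 0 of 28 housekeeping genes had a new peak (interval up to 12.1%).

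**Figure D4:**
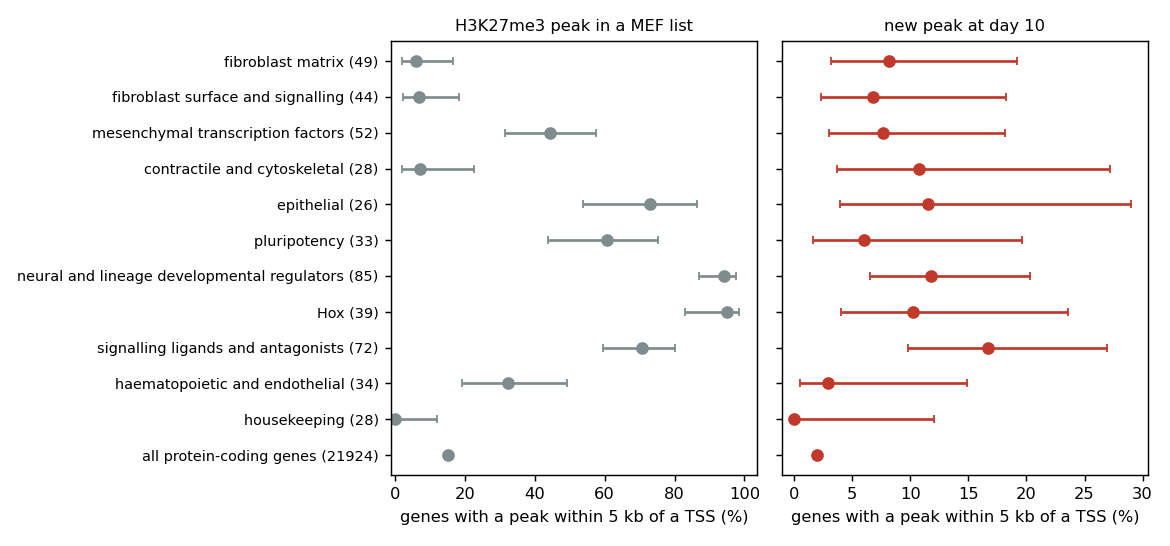
Share of the genes of each list whose TSS had a peak at most 5 kb away, in either MEF list (left) or as a new peak at day 10 (right); x axes in percent with different scales, bars 95% Wilson intervals, numbers of genes in brackets. Developmental and Hox lists are high in MEFs, matrix and contractile lists low, and all of these lists have new peaks at 8.16% to 11.8% of genes.

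The matrix genes with a new peak were Lox, Loxl1, Vcan and Serpinf1, and none had a MEF peak within 5 kb. Ranks below are the position of the peak by score in its list, as percent of the list, with 0 the best. The lists held 3045 to 6539 peaks and were 1 library each, so a difference in rank between lists is not read as a change. Lox and Loxl1 encode enzymes that cross-link collagen and elastin. At Lox (chromosome 18, 52528445 to 52529444, 729 bp downstream of the TSS) the peak ranked at 5.42% in day 10 WT FLAG and 4.69% in day 10 KO FLAG cells, and at 9.43% (WT) and 4.13% (KO) in day 5 FLAG cells. With JMJD3 it was still called in each list. In WT cells its rank was then 58.8% at day 5 and 16.6% at day 10, and in KO cells 33.8% and 4.16%. The nearest MEF peak was 237665 bp away. The Loxl1 peak (chromosome 9, 58311773 to 58312772, +913 bp) was also called in all lists and ranked between 7.40% and 31.9%.

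Vcan, which encodes the proteoglycan versican, behaved differently. Its peak (chromosome 13, 89741974 to 89742973, centred 35 bp from the TSS) ranked at 21.9% in day 10 WT FLAG and 38.7% in day 10 KO FLAG cells. It was absent from all day 5 lists and from day 10 WT JMJD3 cells, and was called at 71.5% in day 10 KO JMJD3 cells. Serpinf1, encoding a secreted protein of the serpin family, had a peak at 51.5% (WT) and 55.8% (KO) in day 10 FLAG cells, at 76.6% in day 5 WT JMJD3 and 85.3% in day 10 KO JMJD3 cells and in no other list.

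Among surface and signalling genes, Pdgfra, the receptor for platelet-derived growth factor that marks many fibroblasts, had 2 new peaks. The one at the TSS (chromosome 5, 75153184 to 75154183, +749 bp) ranked at 23.1% and 9.08% in day 10 WT and KO FLAG cells. It was called in all 6 other lists. In WT cells it ranked at 7.78% at day 5 with FLAG, and with JMJD3 at 4.98% at day 5 and 50.3% at day 10. In KO cells the corresponding ranks were 21.1%, 6.48% and 6.19%. The upstream one (75148734 to 75149733, -3058 bp) was in all 6 lists too, between 12.4% and 89.5%. Cdh2, encoding N-cadherin, had an intronic peak (47.2% and 67.4% in day 10 FLAG lists) whose only other call was in day 10 KO JMJD3 cells. S1pr3, a receptor for sphingosine 1-phosphate, had a promoter peak (22.0% and 33.1%) called at day 5 with FLAG in both genotypes and with JMJD3 in WT, and lost with JMJD3 at day 10 in both genotypes.

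Of mesenchymal transcription factors, Hic1, a transcriptional repressor, had 2 new peaks at -2785 and +2815 bp, both called in all 6 other lists. The second was among the strongest of all new peaks, with ranks of 3.76% (WT) and 9.26% (KO) in day 10 FLAG cells and 4.73% in day 10 WT JMJD3 cells. Klf2 had an intronic peak and no MEF peak nearby, called in day 5 WT but not day 5 KO cells with either vector. Msx2 and Ebf3 had new peaks and also a MEF peak within 5 kb of a TSS. Of contractile genes, Tpm2 (tropomyosin, -742 bp) and Flnc (filamin C, an actin cross-linker, +387 bp) kept their peaks with JMJD3 at day 10 in both genotypes and had none with JMJD3 at day 5. Myl9, the regulatory light chain of smooth muscle myosin, had its peak at 27.9% (WT) and 88.2% (KO) with FLAG at day 10, at 65.5% (WT) and 94.0% (KO) with FLAG at day 5, and in no JMJD3 list. Over the 16 new peaks at fibroblast-listed genes, 12 were called in day 5 WT FLAG and 9 in day 5 KO FLAG cells, 6 were lost with JMJD3 at day 10 in WT and 2 in KO cells (Myl9 and S1pr3), and 7 were called in all 6 lists. Over all new peaks the shares were 61.9% and 53.1% called at day 5, 66.2% and 44.6% lost and 13.1% in all 6 lists. Over all day 10 WT FLAG peaks they were 66.1%, 60.2%, 59.6%, 42.8% and 28.1%. The 42.8% includes peaks not called in KO FLAG cells, which could not be lost there. Of persistent peaks 15.6% were lost in KO cells. With 1 kb in place of 5 kb as the limit, 9 fibroblast-listed genes had a new peak.

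**Figure D5:**
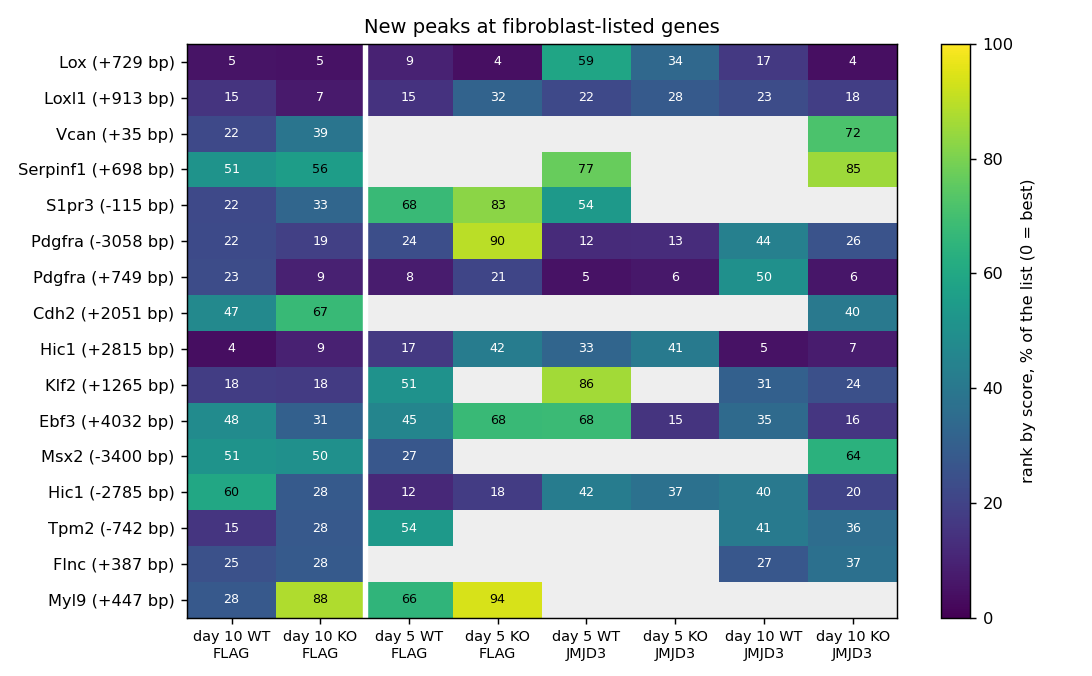
The 16 new peaks at fibroblast-listed genes (rows, with the signed distance from the gene's TSS to the peak centre in bp) in 8 H3K27me3 lists (columns); colour and number give the rank by score as percent of the list, 0 being the best, and grey marks no call. Columns left of the white line chose the peaks. Lox, Loxl1, Pdgfra, Hic1 and Ebf3 are called throughout, and Vcan and Cdh2 only in day 10 KO JMJD3 cells among the other lists.

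Epithelial genes had new peaks beside fibroblast H3K27me3 at Esrp1, a splicing regulator, and Cdh3, encoding P-cadherin, whose peaks were 14 bp and 257 bp from a MEF peak and called in all 6 other lists. The third, Krt7 (a simple epithelial keratin, +679 bp), had no MEF peak within 5 kb, was called in day 5 KO but not day 5 WT FLAG cells and was lost with JMJD3 at day 10 in WT only. Of pluripotency genes Nr5a2 and Klf2 had a new peak. The Nr5a2 peak, in an intron beside MEF peaks, was at the bottom of the day 10 WT FLAG list (99.2%) and ranked at 29.4% in day 10 KO FLAG cells.

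Developmental regulators had 11 new peaks at 10 genes, and 7 of these genes had MEF peaks as well (Pax6, Lhx1, Gata3, Gata4, Sox7, Pitx1 and Evx2). The 2 peaks at Pitx1 overlapped each other. With JMJD3 at day 10 7 of the 11 were lost in WT and 2 in KO cells. The shares were 66.2% and 44.6% over all new peaks and 35.2% and 15.6% over persistent peaks. Of all day 10 WT FLAG peaks 59.6% were lost in WT cells. A further value, 42.8% without a KO JMJD3 peak, includes peaks not called in KO FLAG cells. Sox3, Sox9 and Irx3 had no MEF peak within 5 kb. The Sox9 peak (chromosome 11, 112784404 to 112785403, +2680 bp, exon) ranked at 38.6% (WT) and 3.50% (KO) in day 10 FLAG cells, was called in all day 5 lists at 13.0% to 21.5% and was lost with JMJD3 at day 10 in WT only. The Irx3 peak ranked at 3.74% in day 10 WT FLAG cells and was called in all 6 other lists. Hox genes with a new peak were Hoxa9, Hoxb5, Hoxb9 and Hoxb13, each with a MEF peak within 5 kb of a TSS, and all 4 peaks were called in day 5 KO FLAG cells and in both JMJD3 lists of day 5 (60.2%, 53.7% and 63.4% of all day 10 WT FLAG peaks), but 2 of 4 in day 5 WT FLAG and 2 of 4 in day 10 WT JMJD3 cells.

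Signalling ligands and antagonists had 12 new peaks. They covered Wnt ligands (Wnt1, Wnt2, Wnt5b, Wnt9a), fibroblast growth factors (Fgf10, Fgf12, Fgf14), the Wnt antagonist gene Dkk3, the BMP antagonist gene Grem1 and BMP ligand gene Gdf7, Gdnf (a neurotrophic factor) and Slit3 (a guidance ligand). At 7 of them no MEF peak lay within 5 kb of a TSS (Wnt2, Wnt5b, Wnt9a, Fgf10, Dkk3, Grem1 and Slit3), although the new peak of Wnt9a itself was 3794 bp from one. With JMJD3 at day 10, 5 of the 12 were lost in WT and 0 in KO cells. The shares were 66.2% and 44.6% over all new peaks and 35.2% and 15.6% over persistent peaks. Of all day 10 WT FLAG peaks 59.6% were lost in WT cells. Another 42.8% is their share without a KO JMJD3 peak, which includes peaks not called in KO FLAG cells. For Dkk3 the promoter peak ranked at 39.6% and 42.1% in day 10 WT and KO FLAG cells and at 23.6% and 35.8% at day 5. It was called with JMJD3 at day 5 in both genotypes (74.7% in WT, 51.3% in KO) and at day 10 in KO only (72.3%). Grem1, centred 479 bp from its TSS, was absent from all day 5 lists and called with JMJD3 at day 10 in both genotypes, at 67.0% in WT and 27.7% in KO cells.

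The 15 highest-scoring new peaks were nearest to Vgf, Col8a2, Irx3, Hic1, Cdh3, Adamtsl5, Pde4d, Lox, Plxnc1, Ptprn, Anks1b, Shank2, Pde8a, Esrp1 and Galnt17. Vgf, a neuropeptide precursor gene, had the highest score (chromosome 5, 137030784 to 137031783, +920 bp, 72 CpG). Its peak ranked 33 and 68 in day 10 WT and KO FLAG cells, 356 and 124 in day 5 WT and KO FLAG cells, 1011 and 1289 with JMJD3 at day 5, and 11 and 45 with JMJD3 at day 10. The Vgf peak was therefore among the best of the day 10 lists with either vector, and the nearest MEF peak was 135120 bp away. Galnt17 (a glycosyltransferase gene, 308563 bp from a MEF peak) was likewise called in all 6 other lists. In contrast the peaks near Ptprn (a secretory granule protein), Pde4d (a cAMP phosphodiesterase) and Shank2 (a postsynaptic scaffold) were within 1 kb of a MEF peak.

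Of new peaks without a call in any list from JMJD3 cells, those of highest score included peaks nearest to Asic4, Rusc1, Myl9, Gja4, Kcnh6, Synpo, Dact3, Actl11 and B3gat2, with day 10 WT FLAG scores of 13.3 to 20.3. Kcnh6 (a potassium channel), Dact3 (a regulator of Wnt signalling) and Actl11 (an actin-like protein) were in no day 5 list either. CpG counts of these 9 ranged from 12 at Kcnh6 to 79 at B3gat2.

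KLF4 and JMJD3 binding at day 5 overlapped few new peaks. A KLF4 peak of either list overlapped 36 (4.97%, 3.61 to 6.80), beside 4.58% of all day 10 WT FLAG peaks and 6.25% of persistent peaks (difference -1.29 points, -3.00 to 0.76). A KLF4 peak within 5 kb was found for 21.4% of new and 20.1% of persistent peaks, and for 18.1% of all day 10 WT FLAG peaks. A JMJD3 position, given as 1 bp in the lists, lay in 8 new peaks (1.10%, 0.56 to 2.16), beside 0.741% of all. By score, the first 10 peaks with either were at Vgf (JMJD3), Emilin2, Gdnf, Amer3, Lhx4, Tmem56, Chst8, Rab3b, Fjx1 and Synpo (KLF4), of which Vgf, Emilin2 and Tmem56 were called in all 6 other lists and Synpo in no list from JMJD3 cells. Among the fibroblast-listed genes only Cdh2 had either, and it had both.

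Fixed motifs were searched on both strands of each 1000 bp peak, without allowing mismatches. The AP-1 motif TGANTCA was in 18.9% of new peaks (16.2 to 21.9), 12.9% of persistent and 24.4% of WT-only new peaks, with 17.0% over all day 10 WT FLAG peaks. The RUNX motif TGTGGTT was in 14.8% of new and 9.32% of persistent peaks (12.9% of all). New and persistent peaks differed by 6.01 points (2.99 to 9.29) for AP-1 and 5.44 points (2.75 to 8.42) for RUNX. For TEAD (ACATTCC), KLF (CCACACCC) and OCT (ATGCAAAT) the intervals of the difference included 0, and shares in new peaks were 9.93%, 8.55% and 2.76% (10.3%, 9.49% and 2.55% of all). Median GC was 55.5% in new, 58.8% in persistent and 50.7% in WT-only new peaks, and its part in the motif shares was not tested. New peaks with the AP-1 motif were lost with JMJD3 at day 10 in 70.8% (WT) and 51.1% (KO), against 65.1% and 43.0% without it, and both differences had intervals that included 0.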

How the data were processed

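Of 20 samples, 14 had a peak list (H3K27me3 in 10, KLF4 in 2, JMJD3 in 2), and 6 samples without a list (input and H3K27ac) were not used here. Per the labels the authors aligned reads to mm10, with Bowtie2 2.2.0 named in the submitters' processing notes. By the study's methods, H3K27me3 peaks came from DFilter, those of the bound proteins from MACS2, and H3K27me3 samples held a Drosophila spike-in. Whether the spike-in entered the peak calls is not given in the sources used here, and calls were not read as amounts. H3K27me3 lists, as deposited, hold 1000 bp intervals with a score whose scale is not stated.

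A peak counted as called in another list where 1 bp or more overlapped, checked against bedtools 2.31.1. The knockout could not be checked from peak positions. Distances ran from the peak centre to TSSs of GENCODE M21 basic transcripts (protein-coding genes for gene names, all genes otherwise). Sequence came from GRCm38.p6 through pysam 0.24.0 and samtools 1.23.1, under Python 3.11.15, scipy 1.17.1 and matplotlib 3.10.9. In 5100 simulated day 10 WT FLAG peaks all 700 planted new peaks were recovered.

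Genes named were all listed genes with a new peak within 5 kb, the nearest genes of the 15 highest scores, genes with 3 or more new peaks, and up to 10 highest-scoring peaks called in all 6 other lists, in no list from JMJD3 cells, or with KLF4 or JMJD3 binding, except that 1 gene is not reported here. The peaks, gene lists and comparisons were chosen with earlier results of these data known. Alternatives covered the overlap rule, the score threshold, list length, sex chromosomes, score quartiles, TSS distance, the CpG limit and the MEF lists.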

Additional observations from a re-analysis of the deposited data

Results flagged for a closer look

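With JMJD3 at day 5, the share of new peaks called moved apart between genotypes. It was 61.9% with FLAG and 35.2% with JMJD3 in WT cells, a change of -26.8 points, and 53.1% and 53.5% in KO cells, a change of 0.41 points. All day 10 WT FLAG peaks went from 66.1% to 53.7% in WT and from 60.2% to 63.4% in KO cells, and persistent peaks from 94.5% to 83.6% and from 91.0% to 91.3%. The lengths of the lists moved the same way, from 6428 with FLAG to 5064 peaks with JMJD3 in WT and from 5643 to 6539 in KO cells, and their part was not tested. With 1 library per group the difference between genotypes was not tested.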

How the results depend on the processing

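No paired analysis was possible because each group had 1 library and no test was made. Of 58 alternatives, 31 stayed within the main interval (1.5 times for counts) and 27 moved, and none of the 3 differences among them (day 10 loss in WT and KO, day 5 WT presence) changed sign. With the better-scoring 50% of each day 10 FLAG list there were 201 new peaks, 86.6% were called in day 5 WT FLAG cells, 42.8% (WT) and 19.9% (KO) were lost with JMJD3 at day 10, and differences from persistent peaks were 18.5 (WT loss), 13.0 (KO loss) and -11.7 points (day 5 WT presence). Within score quartiles these differences were 16.0, 15.4 and -22.0 points. With FLAG and JMJD3 lists of equal length the losses were 56.0% and 30.9% and the differences 26.96 and 20.0 points. Requiring an overlap of 50% of the peak gave 50.3% called in day 5 WT FLAG cells, losses of 72.6% and 53.2% and a WT difference of 25.9 points. Counting MEF peaks within 5 kb as present left 559 new peaks with a KO loss of 48.7%. Without the WT MEF list there were 1341 new peaks, 74.0% called in day 5 WT FLAG cells, with losses of 57.9% and 35.9%. This alternative, the one without the KO MEF list, calls up to 1 kb away and KO loss read at the KO peak were added after the data were seen. Within 1 kb of a TSS were 45.0% of new peaks and 9 fibroblast-listed genes had a new peak, the stricter CpG limit (GC 55%, ratio 0.75) gave 11.9% island-like, and a KLF4 peak within 5 kb was found for 21.4%. A peak absent from a list may lie just under its threshold, and read numbers were not used here, so depth was not set apart from loss or gain.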

Other observations

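Some gene families had several members with a new peak within 5 kb of a TSS (1.96% of all genes), read from gene symbols after the values were seen and without a test. They were Wnt ligands (4 of 19), frizzled receptors (Fzd1, Fzd2 and Fzd4, 3 of 10), integrin alpha chains (Itga7, Itga8 and Itga9, 3 of 12), Kcnh potassium channels (Kcnh2, Kcnh3 and Kcnh6, 3 of 8), phosphodiesterases (Pde4d, Pde8a, Pde10a and Pde11a, 4 of 26) and collagens (Col18a1, Col19a1, Col23a1 and Col24a1, 4 of 45). Larger families included solute carriers (Slc, 11 of 371) and Tmem genes (9 of 242). Other families with several included Hoxb (3 of 10), Hspa (3 of 13), Galnt (3 of 17) and Sox (3 of 19). Genes with any day 10 WT FLAG peak were not counted by family, so the shares are not set against the 16.4% over such genes. Persistent peaks were near 12 of the 19 Wnt, 2 of 10 frizzled, 1 of 12 integrin alpha, 3 of 8 Kcnh, 5 of 26 phosphodiesterase and 9 of 45 collagen genes. The collagens were not the abundant fibrillar ones of fibroblasts. Fibrillar Col1a1, Col1a2 and Col3a1 were on the matrix list and had no new peak.

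By score, and chosen after their values were seen, new peaks in no other list included those at Kcnh6, Dact3 and Actl11, followed by peaks nearest to Sp8, Sox9 (196380 bp from its TSS), Ccnd2, Lef1 and Wnt11.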
